A study of Danio rerio with 2 samples.

Results

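Brain aromatase and the nuclear sex steroid receptors were examined as 7 genes of the zebrafish brain. They were the aromatase genes cyp19a1b and cyp19a1a and the oestrogen receptor genes esr1, esr2a and esr2b. The others were the androgen receptor gene ar and the progesterone receptor gene pgr. All were chosen by symbol, with earlier results of these data known. Each was present as 1 row of a table of 27423 rows, and all 7 carried the same symbol when their Entrez IDs were looked up in RefSeq. The study sequenced messenger RNA from the whole brain of wild-type male and wild-type female zebrafish, with 1 library per sex, each from the pooled brains of 5 fish. The sources used here give neither strain nor age. The comparison asked which genes differ between the male and the female brain.

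Aromatase converts androgens into oestrogens. Teleost fish have separate gonadal and brain forms of the enzyme, encoded by cyp19a1a and cyp19a1b, and cyp19a1b is known for its strong expression in radial glia, the neural stem cells of the adult fish brain, and for its induction by oestrogen. Oestrogen, androgen and progestin act through nuclear receptors that bind DNA as ligand-activated transcription factors. The duplicated fish genes esr2a and esr2b correspond to the mammalian oestrogen receptor beta, and esr1 corresponds to oestrogen receptor alpha.

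The libraries held 62248792 estimated reads for males and 64300988 for females. With 1 library per sex no spread between fish or libraries can be estimated, so no test was made and no difference below has a replicate check. Intervals are 95% intervals that cover counting error only. Reads are estimated counts rounded to whole numbers, and CPM are these counts scaled to a common library size. In the female library the yolk and liver genes induced by oestrogen, 7 vitellogenins and nots, were higher for 8 of 8 members under a rule of size. The rule asks for 3 things, a mean of 1 CPM or more, a difference of 2-fold or more, and an interval on 1 side of no difference. Over the 14756 genes that reached the 1 CPM mean, called measured here, that rule called 1.06% on the male side and 2.7% on the female side. It called none of the 7 aromatase and receptor genes.

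The brain form of aromatase was abundant and level between the sexes. For cyp19a1b the male library had 34072 reads and the female library 35722. After scaling this was 555 CPM in males (interval 549 to 561) and 547 CPM in females (interval 542 to 553), so the intervals overlapped. Male over female, the log2 ratio was 0.02 (interval -0.00 to 0.04), and a difference of more than 2.94% above the female level lay outside the counting interval. Of all measured genes, 91.1% had a ratio at least as far from 0. The sign of this small ratio turned when counts were scaled by library totals, and when the trend of the ratio with expression was removed. Both of these values lay outside the counting interval, which does not cover the choice of scaling.

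Gonadal aromatase was near the limit of what the depth could resolve. Its gene cyp19a1a had 57 reads in males and 49 in females, or 0.929 CPM (interval 0.704 to 1.204) and 0.751 CPM (interval 0.556 to 0.993). Its mean of 0.840 CPM lay under the minimum, so it was not among the measured genes. The log2 ratio of 0.30 had an interval of -0.27 to 0.89, so at this depth any male-to-female difference between -17.1% and 85.1% was within counting error.

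To set genes side by side, reads were divided by length. Transcript and coding lengths are not used here, and the length at hand was the genomic span of each gene in the deposited table (Zv9), which includes introns. Values per span are therefore not transcript levels, and an order between genes with unlike introns can change with exonic length. The aromatase genes have similar spans. The cyp19a1b row covers 13.7 kb of the minus strand of chromosome 25, from 4903097 to 4916748. The cyp19a1a row covers 15.7 kb of the minus strand of chromosome 18, from 38057823 to 38073559.

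On this scale cyp19a1b stood at 40.7 CPM per kb of span in males and 40.1 in females, and cyp19a1a at 0.0590 in males and 0.0477 in females. The brain form exceeded the gonadal form 689-fold in the male library (interval 532 to 910) and 840-fold in the female library (interval 636 to 1136). In undivided reads the ratio was 598 in males and 729 in females. Only 370 of 14756 measured genes, 2.51%, had a higher value per kb of span than cyp19a1b in males, and 363, or 2.46%, in females.

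**Figure D1:**
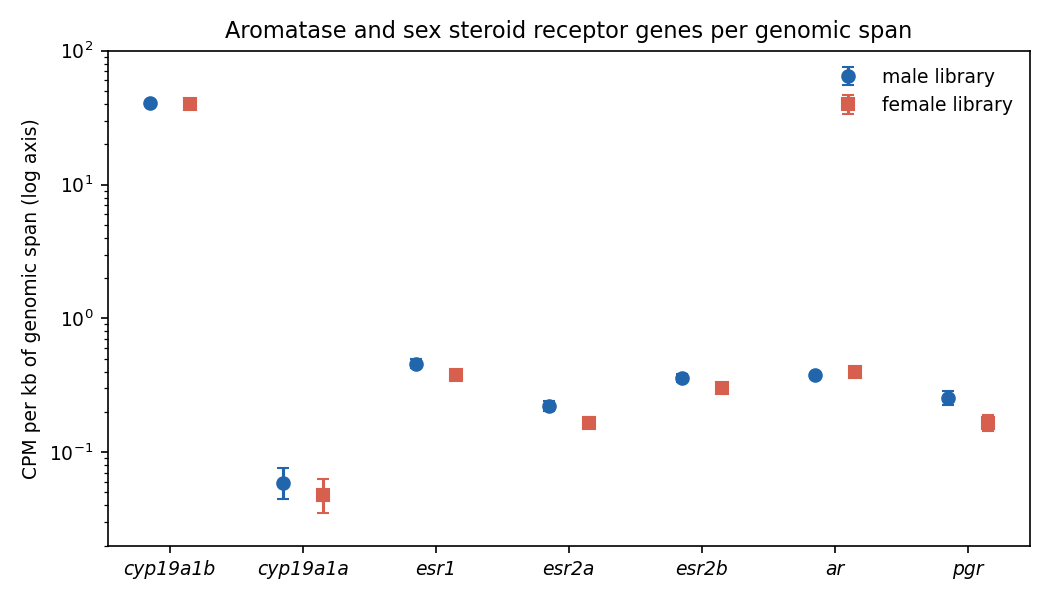
CPM per kb of genomic span on a log axis for the 7 genes, with the male library (circles) left of the female library (squares) and bars for 95% counting intervals. In both libraries cyp19a1b lies at about 40.7 and 40.1 and the receptor genes at 0.458 or lower, with cyp19a1a lowest at 0.0590 and 0.0477.

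Among all measured genes, those whose scaled reads in the 2 libraries lay nearest to those of cyp19a1b were abca2, clasp2 and kif5aa. Their distances from it were 0.016, 0.022 and 0.027 on the log2 scale. The gene abca2 had 33949 reads in males and 36096 in females, clasp2 had 33668 in males and 36081 in females, and kif5aa had 33465 in males and 35531 in females. With 2 libraries such likeness rests on 2 points and on reads not divided by length.

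The oestrogen receptor genes were all modestly higher in the male library. For esr1 there were 663 reads in males and 581 in females, which gave 10.8 CPM (interval 9.998 to 11.7) against 8.90 CPM (interval 8.20 to 9.66). The 2 intervals did not overlap, and the log2 ratio was 0.28 (interval 0.12 to 0.44). The gene esr2a had 547 reads in males and 437 in females, with 8.91 CPM (interval 8.18 to 9.69) against 6.70 CPM (interval 6.08 to 7.36). This was the widest gap of the 3 oestrogen receptor genes, a log2 ratio of 0.41 (interval 0.23 to 0.60) or 1.33-fold. Its duplicate esr2b had 698 reads in males and 625 in females, with 11.4 CPM (interval 10.5 to 12.3) against 9.58 CPM (interval 8.84 to 10.4) and a log2 ratio of 0.25 (interval 0.09 to 0.41). Summed, the oestrogen receptor genes had 1908 reads in males and 1643 in females, a 1.23-fold higher scaled value in males (interval 1.16 to 1.32).

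The androgen receptor gene had a ratio of the opposite sign to the oestrogen receptor genes. For ar the male library had 2761 reads and the female library 3116, or 45.0 CPM (interval 43.3 to 46.7) against 47.8 CPM (interval 46.1 to 49.5). These intervals overlapped, while the interval of the log2 ratio, -0.16 to -0.01 around -0.09, lay just below 0. Of all measured genes, 64.8% were at least as far from 0, so a difference of this size was common between the libraries.

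The progesterone receptor gene had the highest ratio of the 7. For pgr the male library had 311 reads and the female library 216, or 5.07 CPM (interval 4.52 to 5.66) against 3.31 CPM (interval 2.88 to 3.78). The groups' intervals were well apart, and the male level was 1.53-fold the female one (interval 1.28 to 1.83; log2 ratio 0.61). Of the measured genes, 365, or 2.47%, had a ratio at least as high. The corresponding shares were 4.91% for esr2a, 9.51% for esr1 and 11.3% for esr2b.

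**Figure D2:**
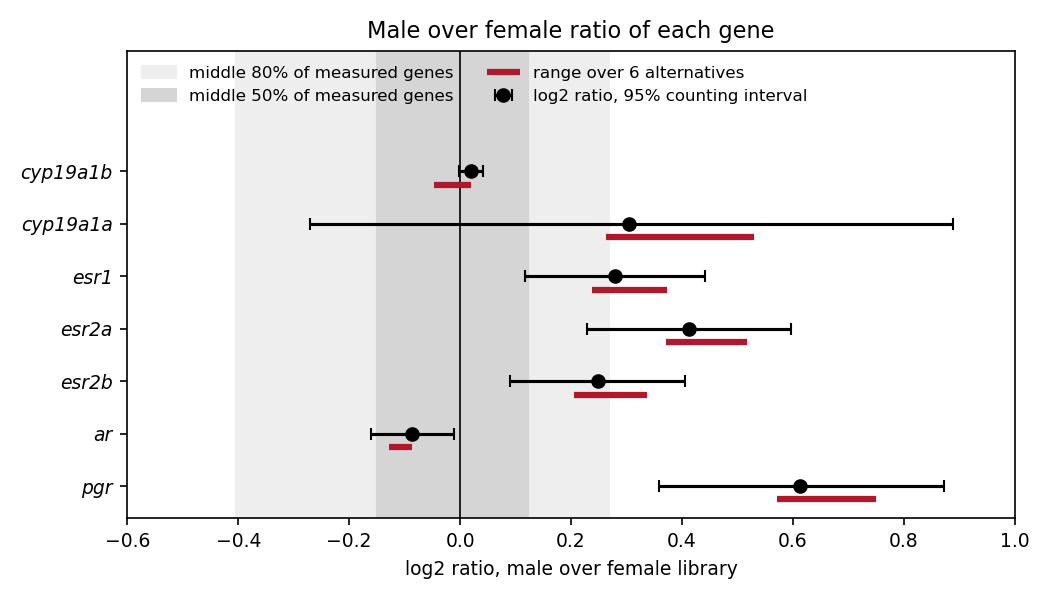
The log2 ratio of male over female for each gene (points) with its 95% counting interval, above a red bar for the range over 6 alternative calculations; grey bands hold the middle 50% and 80% of measured genes. The intervals of esr1, esr2a, esr2b and pgr lie above 0, that of ar below 0, and those of cyp19a1b and cyp19a1a hold 0.

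Of the 6 measured genes, 4 had an interval wholly above 0 and 1 wholly below. Among all measured genes 31.5% had an interval above 0 and 30.8% below 0, so at this depth an interval that excludes 0 was common. The 4 genes on the male side had a mean of 200 to 1000 reads, and among the 3536 measured genes in that range 18.3% had an interval above 0 and 38.9% below 0. That range was chosen after the values were seen. A level at least 25% higher in males with such an interval was found for esr2a and pgr, against 7.18% of measured genes. At least 25% higher in females were none of the 6, against 12.5% of measured genes. The median log2 ratio was 0.28 over the 7 genes, 0.26 over the 6 measured ones and -0.0014 over all measured genes. With the expression trend removed the ratios became 0.37 for esr1, 0.52 for esr2a, 0.34 for esr2b and 0.75 for pgr. The sign for ar was negative and the signs for esr1, esr2a, esr2b and pgr were positive under each of the 6 alternatives.

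**Figure D3:**
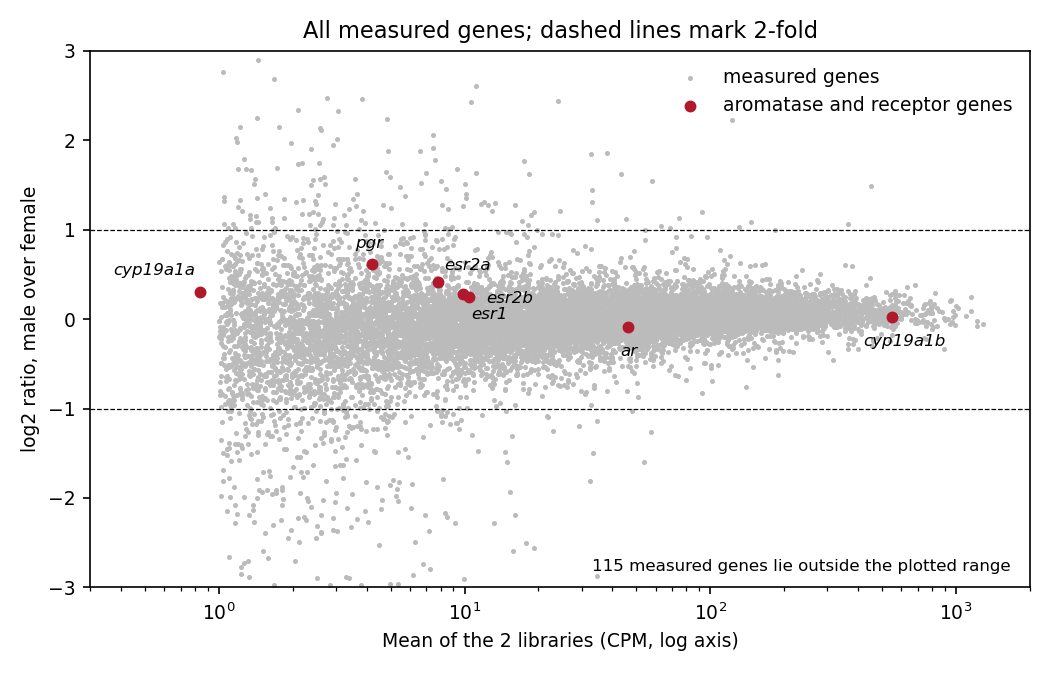
Each measured gene (grey) by its mean CPM (log axis) and its log2 ratio of male over female, with the 7 aromatase and receptor genes in red and dashed lines at 2-fold; 115 genes lie outside the plotted range. All 7 lie inside the 2-fold lines, with cyp19a1b close to 0 among the genes with most reads and pgr highest at 0.61.

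Comparing pairs of genes within each library, and then the pair's ratio between libraries, removes both gene length and library scaling. Within the oestrogen receptors the balance was similar in both sexes. The male pair ratio over the female pair ratio was 0.979 for esr2b over esr1 (interval 0.835 to 1.15), 0.892 for esr2b over esr2a (interval 0.753 to 1.06) and 0.912 for esr1 over esr2a (interval 0.768 to 1.08). All 3 intervals held 1, and the lowest bound among them was 0.753.

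Of oestrogen receptor reads, esr1 took 34.7% in males (exact Clopper-Pearson interval 32.6 to 36.9) and 35.4% in females (33.0 to 37.7). The share of esr2a was 28.7% in males (26.6 to 30.8) and 26.6% in females (24.5 to 28.8), and that of esr2b was 36.6% in males (34.4 to 38.8) and 38.0% in females (35.7 to 40.4). Per kb of span the order changed, with esr1 first at 44.2% in males and 44.7% in females, esr2b at 34.6% and 35.7%, and esr2a at 21.3% and 19.6%. On either scale esr2a was the least of the 3 in both libraries, whereas whether esr1 or esr2b leads depends on the length used.

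The balance between classes of receptor was less even, although the interval of esr2a over pgr held 1 (0.869, interval 0.697 to 1.08). The ratio of ar to pgr in males was 0.615 of that in females (interval 0.511 to 0.740), the widest shift of the 21 pairs among the 7 genes. For ar over the oestrogen receptor genes the corresponding values were 0.777 with esr1 (interval 0.686 to 0.879), 0.708 with esr2a (interval 0.616 to 0.813) and 0.793 with esr2b (interval 0.703 to 0.896). The ratio of cyp19a1b to pgr in males was 0.662 of that in females (interval 0.554 to 0.791), and that of cyp19a1b to ar was 1.08 (interval 1.02 to 1.14). None of the 6 pairs with cyp19a1a had an interval that excluded 1. That gene had only 57 reads in males and 49 in females, which makes its intervals wide. The 21 pairs share 7 genes and restate the ratios of the single genes, so they are not separate results. The share of pairs with an interval that excludes 1 was not computed over all measured genes, so no count of pairs is read here. Single measured genes are another quantity, and of these 31.5% had an interval above 0 and 30.8% below 0.

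**Figure D4:**
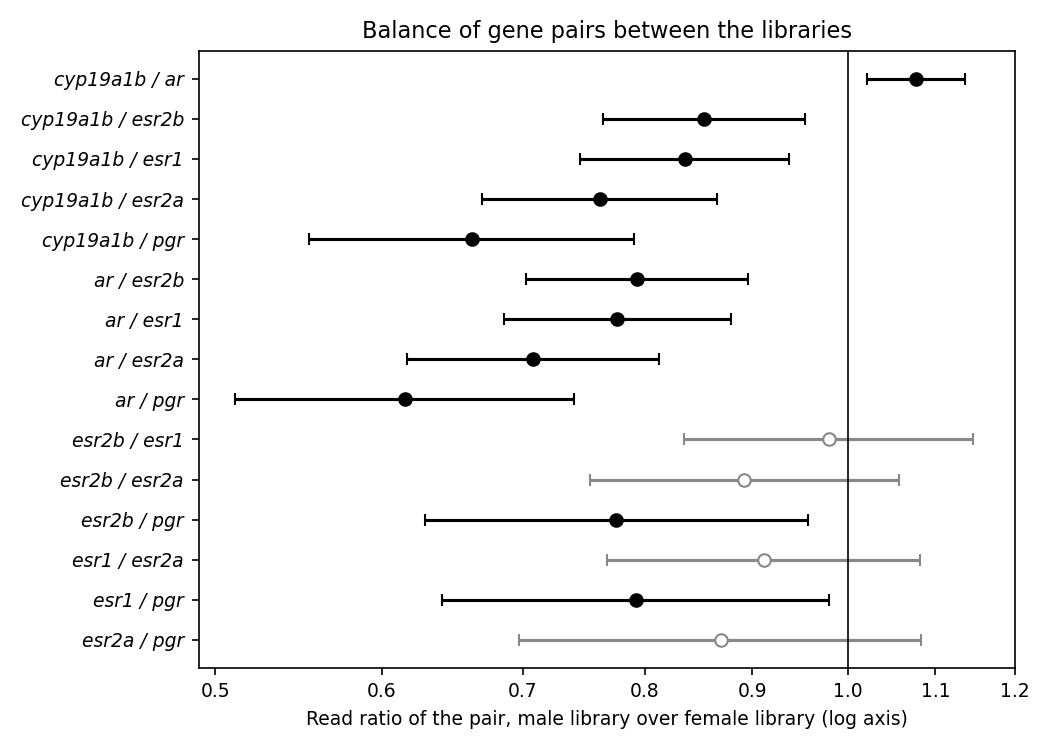
The read ratio of each pair of genes in the male library divided by that in the female library (log axis), with 95% counting intervals, for the 15 pairs without cyp19a1a; filled points have an interval that excludes 1. The 3 pairs within the oestrogen receptors and esr2a over pgr are the open points, and ar over pgr lies lowest at 0.615.

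Per kb of span the receptor genes lay close together below cyp19a1b. In males the order was esr1 at 0.458 CPM per kb, ar at 0.376, esr2b at 0.358, pgr at 0.254 and esr2a at 0.221. There ar and esr2b did not differ per span beyond counting error (ratio 1.05, interval 0.966 to 1.14). In undivided reads their ratio in males was 3.96 (interval 3.64 to 4.30). In females the order was ar at 0.399, esr1 at 0.377, esr2b at 0.302, and pgr and esr2a both at 0.166. Here ar and esr1 did not differ per span beyond counting error (ratio 1.06, interval 0.968 to 1.16). Nor did esr2a and pgr (ratio 0.998, interval 0.846 to 1.18). In undivided reads the ratio in females was 5.36 for ar over esr1 (interval 4.91 to 5.87). For esr2a over pgr it was 2.02 (interval 1.71 to 2.39). These intervals do not cover the choice of length, so likeness per span is not equality of transcript levels. The ar span of 119.6 kb is by far the longest, so its place rests most on the use of genomic span.

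In the deposited coordinates the 5 receptor genes and cyp19a1b had their nearest 3′ neighbour on the opposite strand, tail to tail, while cyp19a1a did not. This arrangement is common, and 11894 of 27402 rows with a 3′ neighbour, 43.4%, had it. No row overlapped any of the 7 genes. The 3 oestrogen receptor genes each adjoin a gene for a nesprin, a giant protein that links the nuclear envelope to the cytoskeleton. The gap was 325 bp from esr1 to syne1a on chromosome 20, 3458 bp from esr2a to syne2a elsewhere on chromosome 20, and 4512 bp from esr2b to syne2b on chromosome 13. The gene pgr on chromosome 18 lies 7461 bp from arhgap42, now arhgap42b. The human counterparts of these oestrogen and progesterone receptor genes have the same neighbours, as background.

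No source used here says whether counting used strand, so reads that run past a 3′ end could not be assigned by strand. The values of these neighbours are therefore given beside the receptors'. The log2 ratio was 0.20 for syne1a (51319 reads in males and 47446 in females, interval 0.18 to 0.22) and 0.48 for syne2a (350 and 266 reads, interval 0.25 to 0.72), both of the same sign as esr1 and esr2a. For syne2b it was 0.04 (4531 and 4672 reads, interval -0.01 to 0.10), below the 0.25 of esr2b. The neighbour arhgap42 was listed at 0 in both libraries. The part of these neighbours in the receptor values was not tested.

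The nearest row 3′ of cyp19a1b is ap4e1, tail to tail at 4751 bp, with a log2 ratio of 0.10 (interval -0.03 to 0.23), and the nearest row 3′ of cyp19a1a is tnfaip8l3, on the same strand at 36932 bp, with -0.08 (interval -0.17 to 0.01).

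Few genes that act with aromatase and the receptors were called under the 2-fold rule, which does not show that the rest were level. All gene lists here, with the oestrogen-induced genes above and the marker lists below, were written with earlier results of these data known. Their counts are descriptions and not tests. Of 22 measured genes of steroid synthesis, 1 was called on the female side and none on the male side, against 2.7% and 1.06% of all measured genes. The list's median log2 ratio was -0.09. An interval above 0 was found for 4 of the 22 and below 0 for 8, against 31.5% and 30.8% of all measured genes. The called gene was cyp11a1, now cyp11a1.1, whose enzyme makes pregnenolone from cholesterol, with 30 reads in males and 170 in females. A further 8 of the 33 genes matched on this list were listed at 0 in both libraries. Among 9 measured membrane steroid receptor genes 1 was called on the female side, against 2.7% of all measured genes. It was the membrane progestin receptor gene paqr5a (184 reads in males and 436 in females). The median of the 9 was -0.11. An interval above 0 was found for 2 and below 0 for 5, against 31.5% and 30.8% of all measured genes. None of 9 measured regulators of aromatase transcription was called. Their median was -0.08, and 0 of 9 had an interval above 0 and 5 below 0, against 31.5% and 30.8% of all measured genes. The 2 with the most reads were creb1b (4732 reads in males and 5550 in females) and arnt (4648 and 5057).

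Coregulators, which bind the receptors and adjust transcription, had 22 measured members, none called. Their median was 0.10, and 15 of 22 had an interval above 0 and 1 below, against 31.5% and 30.8% of all measured genes. At high read numbers small ratios also had such an interval. The corepressor gene ncor1, with 17670 reads in males and 18030 in females, was at 0.06 (interval 0.03 to 0.09). None of 12 measured receptor chaperone genes was called (median -0.03). An interval above 0 was found for 2 and below 0 for 5, against 31.5% and 30.8% of all measured genes. The gene hsp90ab1, whose product holds steroid receptors ready for hormone, was at -0.11 (interval -0.12 to -0.09) and hspa8 at -0.02 (interval -0.05 to 0.00). The highest of the 12, named after its value was seen, was fkbp5 at 0.51 (interval 0.48 to 0.54). The related receptor genes of the same subfamily, 4 of them measured, had a median of 0.05 and none called. Among these the mineralocorticoid receptor gene nr3c2 was at 0.11 (interval 0.07 to 0.14) and the glucocorticoid receptor gene nr3c1 at 0.00 (interval -0.04 to 0.04). The rest of the measured relatives were esrra at 0.26 (interval 0.22 to 0.31) and esrrga at -0.18 (interval -0.23 to -0.13).

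**Figure D5:**
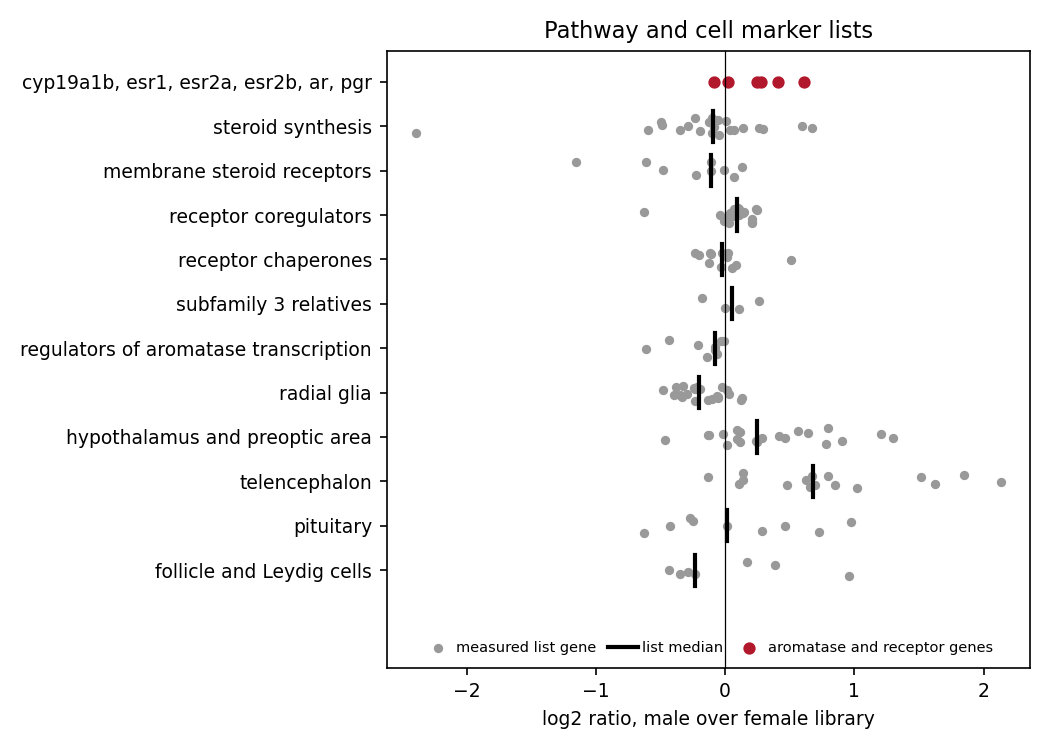
The log2 ratio of male over female for the 6 measured aromatase and receptor genes (red, top row) and for the measured genes of 11 pathway and marker lists (grey), with black bars at list medians. The photoreceptor, oocyte, testis and liver lists are not drawn. The telencephalon list has a median of 0.68, and the medians of the lists of steroid synthesis and receptor partners lie close to 0.

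Markers of the cells in which these genes are known to act differed between the libraries. In bulk tissue fewer cells of a type and less RNA per cell cannot be told apart. All 22 radial glia markers were measured and none was called, but 16 had an interval below 0 and 1 above, against 30.8% and 31.5% of all measured genes. Their median was -0.20 and their summed level 4099 CPM in males and 4637 CPM in females, with none listed at 0. At high read numbers small ratios also had such an interval, as for slc1a3b at -0.027 (interval -0.052 to -0.002). The glial glutamate transporter gene slc1a2b was at -0.21 (interval -0.23 to -0.20) and the glutamine synthetase gene glula at -0.24 (interval -0.26 to -0.22). The ratio of cyp19a1b exceeded that of 19 of the 22 markers, and 16 marker intervals lay wholly below its own and 1 wholly above. None of the radial glia markers had a ratio as high as esr1, esr2a, esr2b or pgr.

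Forebrain marker lists had medians above 0. A list was written for the hypothalamus and preoptic area, the region where sex steroid receptors are prominent in fish. It had 21 measured members of 23 matched, with agrp listed at 0 in both libraries. Of these, 2 were called on the male side and none on the female side, against 1.06% and 2.7% of all measured genes. The list's median was 0.24. An interval above 0 was found for 11 of 21 and below 0 for 3, against 31.5% and 30.8% of all measured genes. The summed level was 373 CPM in males and 308 CPM in females. The called genes were lhx6a (1164 reads in males and 502 in females) and lhx8a (332 and 153). The 3 with an interval below 0, named after their values were seen, were nkx2.4b at -0.46, otpb at -0.14 and isl1a at -0.13. The ratios of esr1 and esr2b lay near the middle of this list, with 10 of 21 list genes higher than each. The ratio of pgr was exceeded by 6 of the 21 and that of ar by 18. Whether each gene of this list is expressed in the hypothalamus, or also in the telencephalon or other regions, was not examined. This list and the next therefore need not be independent, and the median of this list need not stand for the hypothalamus alone.

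The telencephalon list had all 16 members measured, 5 called on the male side and none on the female side, against 1.06% and 2.7% of all measured genes. The list's median was 0.68, and 15 of 16 had an interval above 0 and 1 below, against 31.5% and 30.8% of all measured genes. The list summed to 1006 CPM in males and 789 CPM in females, with none listed at 0. Its 5 called genes summed to 217 CPM in males and 83.3 CPM in females. Its other 11 summed to 789 CPM in males and 706 CPM in females. Its leading genes were foxg1a (3138 reads in males and 927 in females), emx3 (257 and 62), tbr1b (4035 and 1393) and emx1 (245 and 91). The 1 with an interval below 0, named after its value was seen, was zic2a at -0.13. It had 336 CPM in males and 368 CPM in females. The ratio of pgr was exceeded by 11 of these 16 genes and that of esr2a by 12. Photoreceptor genes had 7 of 12 measured members called on the male side, against 1.06% of all measured genes. An interval above 0 was found for 12 of 12 of them, against 31.5% of all measured genes. Their median was 1.36 (0.90 at a minimum of 5 CPM) and their summed level 185 CPM in males and 97.6 CPM in females. The genes pde6a and pde6b were listed at 0 in both libraries and opn1mw1 in the female one. Pituitary genes had none of 9 called (median 0.02, negative with library totals or a minimum of 5 CPM), with a summed level of 151 CPM in males and 153 CPM in females and fshb listed at 0 in both. The pituitary list was mixed, with ratios from -0.63 to 0.98. Its intervals lay above 0 for 3 of 9 and below for 4, against 31.5% and 30.8% of all measured genes. The part of regional or cellular make-up in the receptor values was not tested.

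Markers of gonad and liver are given beside cyp19a1a and esr1, which those organs also express. Oocyte genes were called on the female side for 7 of 9 measured members (median -5.12), against 2.7% of all measured genes. The list's summed level was 129 CPM in males and 225 CPM in females over all 15 matched. The uncalled nobox alone had 114.5 CPM in males and 109.5 CPM in females. Its row was deposited as wu:fi69e09 and takes the name nobox only from its Entrez ID, and the identity of the row was not examined. The 7 called genes, mostly of the egg coat, summed to 2.48 CPM in males and 94.5 CPM in females. Among the list's genes bmp15 was listed at 0 in both libraries and figla and zp2.1 in the male one. Liver genes were called on the female side for 15 of 17, against 2.7% of all measured genes. Their median was -3.13 and their summed level 335 CPM in males and 847 CPM in females, with c3a.1 listed at 0 in both. The 15 called liver genes summed to 71.0 CPM in males and 541 CPM in females, and the uncalled cp and rbp4 to 263 CPM in males and 305 CPM in females. None of 7 measured genes of follicle and Leydig cells, the steroid-making cells of the gonads, was called. Their median was -0.23 (-0.030 at a minimum of 5 CPM) and the summed level of the list 74.2 CPM in males and 72.5 CPM in females, with none listed at 0. Testis germ cell genes were called on the female side for 5 of 10, against 2.7% of all measured genes. Their median was -0.75, or -1.03 at a minimum of 5 CPM. Their summed level was 21.3 CPM in males and 34.4 CPM in females, with none listed at 0. The list was mixed, with 3 of 10 intervals above 0 and 6 below, against 31.5% and 30.8% of all measured genes. Whether the 5 called genes are also expressed in cells of the brain was not examined, so their calls need not stand for germ cells. The 3 above 0, named after their values were seen, were tex11 at 0.87, spo11 at 0.61 and piwil2 at 0.59. Beside the medians of these 4 lists, the ratio of cyp19a1a was 0.30, with an interval that held 0 (-0.27 to 0.89). That of esr1 was 0.28 (interval 0.12 to 0.44). The part of such tissue in the counts of cyp19a1a and esr1 was not tested.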

How the data were processed

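The deposited table was made by the authors. The submitters' processing notes name TopHat 1.4.1 and DESeq as tools and Zv9 as genome build, without saying what each did. No source used here names the counting program or the annotation. Per the labels' protocols, 3 µg of RNA with an integrity number of 8 to 9 was used per library, and single reads of 51 bp were sequenced. Per the file headers 2 deposited columns hold raw counts, which are estimated counts that the authors left without normalization. Within 0.001, 1.56% of the values above 0 were whole in the male column and 1.92% in the female column. The other deposited columns, headed normalized counts, hold log2 values and served as an alternative.

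Rows sharing an Entrez ID were summed to 27095 genes and rounded. Counts were scaled by median-of-ratios size factors (0.970 male, 1.03 female). The log2 ratio used 0.5 added to each count, and its 95% interval came from the Clopper-Pearson bounds on the share of reads from males. With 1 library per sex, intervals cover counting error only. Reads carry no molecular identifiers, so repeated reads of 1 molecule are not accounted for. Error in the estimated counts themselves is not covered either. Pair ratios between libraries are conditional odds ratios with exact intervals. Planned coding lengths could not be had, so genomic span was used. Symbols came from RefSeq by Entrez ID for 22112 genes (81.6%). The 7 genes and the lists were chosen with earlier results of these data known. Named list genes are up to 4 called members, or the 2 with most reads where none was called. Some genes that this rule or position would name are not reported here. Exceptions, such as neighbours and genes listed at 0, were chosen after values were seen. A check on simulated counts, drawn with counting noise only, recovered 150 of 150 genes changed 3-fold or more under the 2-fold rule. This recovery covers neither smaller differences, such as those of the receptor genes, nor variation between fish or libraries. Alternatives were TMM factors, library totals, the deposited log2 values, 1 as the added count, no rounding, removal of a lowess trend (fraction 0.3) and other minimum levels. Software was edgeR 4.0.16 in R 4.3.3, and Python 3.11.15 with scipy 1.17.1, numpy 2.4.6, statsmodels 0.14.6, pandas 2.3.3 and matplotlib 3.10.9.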

Additional observations from a re-analysis of the deposited data

How the results depend on the processing

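The log2 ratios of esr1, esr2a, esr2b, ar, pgr and cyp19a1a stayed within their counting intervals and kept their signs under all 6 alternatives. The ranges were 0.24 to 0.37 for esr1, 0.37 to 0.52 for esr2a, 0.21 to 0.34 for esr2b, -0.13 to -0.09 for ar, 0.57 to 0.75 for pgr and 0.26 to 0.53 for cyp19a1a. The ratio of cyp19a1b became -0.021 with library totals and -0.047 with the expression trend removed, both outside its counting interval. Genes called numbered 156 on the male and 399 on the female side, 59 and 112 at a minimum of 5 CPM, and 319 and 656 with no minimum. None of the 7 genes was called under any of these, and at 5 CPM pgr was no longer measured. In raw reads in place of reads per span, esr1 took 34.7% of oestrogen receptor reads in males and 35.4% in females, and esr2a 28.7% and 26.6%. The pituitary median of 0.02 became -0.024 with library totals and -0.25 at 5 CPM. At 5 CPM the medians also moved for follicle and Leydig cells (-0.23 to -0.030), testis germ cells (-0.75 to -1.03) and photoreceptors (1.36 to 0.90). No paired analysis was possible because each sex has 1 library. Depth limits cyp19a1a most, with 57 reads in males and 49 in females.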

Other observations

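Several enzymes that act around aromatase differed by less than 2-fold but with intervals away from 0. They were picked after their values were seen. The gene hsd17b3, whose enzyme makes testosterone from androstenedione in mammals, had 1237 reads in males and 825 in females (log2 ratio 0.67, interval 0.54 to 0.80), and hsd20b2, a steroid-reducing enzyme gene, had 911 and 643 (0.59, interval 0.44 to 0.74). On the female side the sulphotransferase gene sult1st1 had 522 reads in males and 841 in females (-0.60, interval -0.76 to -0.44). The P450 reductase genes pora and porb, whose products pass electrons to aromatase, had ratios of opposite sign, at 0.14 (6478 and 6264 reads) and -0.20 (4855 and 5913 reads).

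Of the 27423 rows, 10440, or 38.1%, were listed at exactly 0 in both libraries. These included genes of broad use such as the ferredoxin reductase gene fdxr, the receptor co-chaperone genes ptges3a and ptges3b, and arnt2. A listing at 0 in this table therefore need not mean that a gene had no RNA. None of the aromatase and receptor genes was listed at 0.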
